A study of Mus musculus with 11 samples.

Results

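Ccr7, Il7r, Klf2, Tcf7 and Lef1 are 5 genes chosen by name for their roles in the homing of T cells to lymph nodes and in keeping T cells at rest. A gene was measured where a probe set, the group of array probes for 1 transcript, carried its symbol alone in the array's annotation. By that rule 4 of the 5 were measured, with 5 probe sets between them, among 12393 measured genes; Tcf7 was not analysed here. Il7r had 2 probe sets, 1448575_at and 1448576_at. Ccr7 was read by 1423466_at, Klf2 by 1448890_at and Lef1 by 1421299_a_at. In GRCm38.p6, Ccr7 lies at chr11:99144199-99155077, Il7r at chr15:9506159-9529941, Klf2 at chr8:72319062-72321654 and Lef1 at chr3:131110297-131224357, per RefSeq.

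The arrays hold total RNA of T cells from B10.BR mice that had been cultured for 4 days with dendritic cells from C57BL/6 mice. The strains carry different major histocompatibility genes, so every culture was a reaction to foreign tissue antigens. Their organs of origin were Liver, MLN and PLN, with 3 arrays each, and Spleen, with 2 arrays. MLN and PLN, customary short forms of mesenteric and peripheral lymph node, are not spelled out in the labels. The arrays carry the replicate numbers 2, 3 and 4, and Spleen has numbers 3 and 4 only. No organ is labelled as the control and no array holds T cells cultured alone. The labels do not say whether arrays of 1 organ came from separate animals or cultures.

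Naive T cells enter lymph nodes with the chemokine receptor Ccr7, live on interleukin 7 through its receptor chain Il7r, and are held at rest by the transcription factor Klf2, which also drives genes of homing and egress. Lef1 and Tcf7 are related DNA-binding factors of the Wnt pathway that mark naive and memory T cells. In mouse T cells the forkhead factor Foxo1 supports expression of Ccr7, Il7r and Klf2. Activation through the T cell receptor lowers most of these genes, and memory cells regain them.

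The stretch before the gene start is shown for 3 of the measured genes, from the RefSeq table used here (mouse build GRCm38.p6, for Lef1 the first of its starts). The levels of these 3 genes moved together between replicate numbers. Il7r was also called between organs, but only in some of the fits described below. Each stretch is 250 bases long, or 185 for Il7r, where 65 bases inside the gene were left out. Capitals mark matches to 5 motifs, searched on both strands: GTAAACA (forkhead factors), CTTTGAA and CTTTGAT (Tcf and Lef factors, differing only in the last letter), CACCC (Klf factors) and CCGGAAG (Ets factors). The lines run 5′ to 3′ on the gene's strand.
Klf2, chr8:72318812-72319061, plus strand: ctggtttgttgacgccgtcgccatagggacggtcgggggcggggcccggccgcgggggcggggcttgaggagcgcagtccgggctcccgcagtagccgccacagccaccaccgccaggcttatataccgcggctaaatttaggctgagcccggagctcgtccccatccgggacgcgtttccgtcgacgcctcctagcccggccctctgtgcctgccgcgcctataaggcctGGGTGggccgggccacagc
Lef1, chr3:131110047-131110296, plus strand: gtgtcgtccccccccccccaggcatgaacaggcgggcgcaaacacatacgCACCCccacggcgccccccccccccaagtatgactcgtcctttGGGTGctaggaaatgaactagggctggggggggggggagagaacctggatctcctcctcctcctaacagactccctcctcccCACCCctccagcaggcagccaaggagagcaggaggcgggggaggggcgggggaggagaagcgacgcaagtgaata
Il7r, chr15:9529942-9530126, minus strand: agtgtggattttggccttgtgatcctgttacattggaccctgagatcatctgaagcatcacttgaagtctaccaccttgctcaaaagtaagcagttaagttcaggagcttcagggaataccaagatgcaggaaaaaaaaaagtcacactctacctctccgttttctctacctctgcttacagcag
Klf2 had 1 CACCC match, on the other strand and 19 bases before its start, and Lef1 had 3, on both strands. The Il7r stretch had none of the 5 motifs. CACCC occurred in 52% of 32851 such stretches of 250 bases, and the other motifs in 3.17% (GTAAACA), 4.46% (CTTTGAA), 3.21% (CTTTGAT) and 6.91% (CCGGAAG). A match is a description of the letters, and no binding was measured.

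Markers of T cells and of other cell types were measured on all arrays, and single markers are named here after their values were seen. The summed intensity of 10 measured of 12 T cell markers was 30993 to 41214. That of 14 measured of 15 markers of mature dendritic cells was 6054 to 17869. These sums are not set against each other, since their probe sets differ. The summed markers of B cells (9 of 10 measured) ran from 785 to 1303, and those of macrophages and monocytes (8 of 9) from 2350 to 4106. Those of lymph node stroma and endothelium (6 of 8) ran from 592 to 896, and those of NK cells (5 of 7) from 13330 to 17647. Most of the NK cell sum was Gzma, at 10408 to 15920, which cytotoxic T cells express too. Ncr1 and Klra8 of that list had intensities of 33.6 to 84.7 and 2.83 to 78.1, and were too dim to be tested. In these mixed cultures fewer cells of a type and less RNA per cell cannot be told apart. Nor do the arrays show which cells of a culture gave the signal of the genes described here.

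Levels are log2(intensity + 16) after quantile normalization, which gives all arrays the same distribution of values, and a difference of 1 on this scale is a doubling at high intensity. They are compared for 1 gene at a time, since different probe sets do not share a scale. Differences were tested with limma in 7436 genes, with Benjamini-Hochberg adjustment over all of them and a threshold of 0.05. No gene of the 4 differed between organs in the fit without the replicate number. The F-test over the 4 organs called 0 of the 4 (0 also at an unadjusted p under 0.05) and 0.0403% of all genes. The same held for each organ against the mean of the others, with 0.0941% of all genes called for MLN (0.0269% higher and 0.0672% lower) and 0% for Liver, PLN and Spleen. It also held for the 6 pairs of organs, with 0.161% of all genes called for Liver minus MLN (0.0941% higher and 0.0672% lower), 0.0134% for MLN minus PLN and 0% for the rest. With the number as a block in the fit, Il7r alone of the 4 was called.

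**Figure D1:**
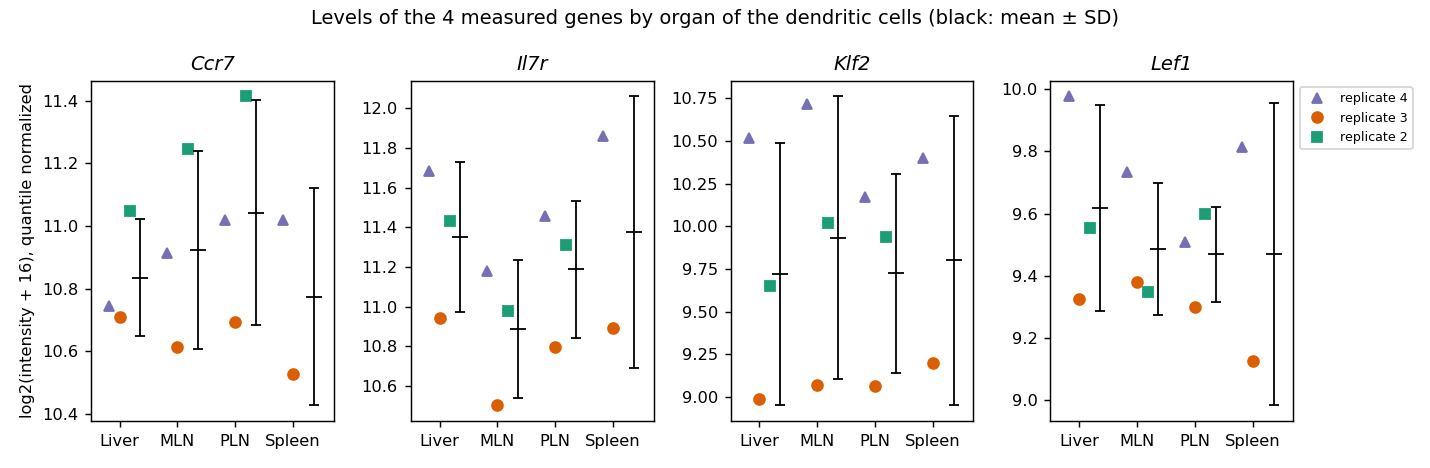
Levels of Ccr7, Il7r, Klf2 and Lef1, log2(intensity + 16), by organ of the dendritic cells (horizontal axis); points are arrays, shaped by replicate number, and black bars are the mean ± SD (n = 3, Spleen n = 2). The SDs of the 4 organs overlap in every gene, and arrays numbered 3 lie lowest in all but the MLN arrays of Lef1.

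Il7r, the receptor chain for interleukin 7, was lowest in the MLN cultures within every replicate number. In number 4 the levels were 11.68 in Liver, 11.18 in MLN, 11.46 in PLN and 11.86 in Spleen cultures. In number 3 they were 10.94 in Liver, 10.50 in MLN, 10.80 in PLN and 10.89 in Spleen cultures. In number 2 they were 11.43 in Liver, 10.98 in MLN and 11.31 in PLN cultures. MLN was thus below each other organ of its own number, while the arrays of the organs overlapped when numbers were mixed. Of all genes tested, 4.34% were lowest in MLN in every number.

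Without the number the organ means of Il7r were 11.35 ± 0.38 in Liver, 10.89 ± 0.35 in MLN and 11.19 ± 0.35 in PLN cultures (SD, n = 3), and 11.38 ± 0.68 in Spleen cultures (SD, n = 2). The difference of MLN from the mean of the others was -0.42 (SE 0.24, limma unadjusted p = 0.109) and was not called. With the block it was -0.44 (SE 0.06, limma adjusted p = 0.00386), a fold of 0.739, where 1.36% of all genes were called and 0.619% were called lower. Liver exceeded MLN by 0.47 (SE 0.07, limma adjusted p = 0.00426), a fold of 1.38, where 4.13% of all genes were called, 1.88% higher and 2.25% lower. Within numbers 4, 3 and 2 that difference was 0.50, 0.44 and 0.46. MLN minus Spleen was -0.54 (SE 0.08, limma adjusted p = 0.0209; 0.215% of genes called), with -0.68 in number 4 and -0.39 in number 3. MLN minus PLN was -0.30 (SE 0.07) and did not pass (limma adjusted p = 0.253; 0.148% of genes called), at -0.28, -0.30 and -0.33 within numbers 4, 3 and 2. The blocked F-test over organs gave limma adjusted p = 0.0109 for Il7r, where 1.98% of all genes were called. In order of the organ means, Spleen, Liver, PLN and MLN, no neighbouring organs differed past the threshold, the blocked adjusted p being 0.843 for Liver minus Spleen and 0.294 for Liver minus PLN.

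The calls for Il7r depended on how the number and the scale were treated. With the number as a random block no Il7r comparison between organs passed (MLN minus the others, -0.43, limma adjusted p = 0.0920). With the block and median centring in place of quantile normalization, MLN minus the others was -0.35 (limma adjusted p = 0.0863) and no comparison passed. On the arrays numbered 3 and 4 alone, which every organ has, it was -0.43 (limma adjusted p = 0.0596). Without MLN replicate 4 the blocked difference missed the threshold too (limma adjusted p = 0.0567).

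The second probe set of Il7r followed the first, with Pearson's r = 0.985 over the 11 arrays, which include both organ and number differences. Its levels in number 4 were 10.84 in Liver, 10.28 in MLN, 10.66 in PLN and 11.04 in Spleen cultures. In number 3 they were 10.04 in Liver, 9.69 in MLN, 10.01 in PLN and 10.11 in Spleen cultures, and in number 2 they were 10.67 in Liver, 10.34 in MLN and 10.51 in PLN cultures. MLN was lowest in every number here as well. When every probe set was tested separately with the block, MLN minus the others was -0.42 for 1448576_at (limma adjusted p = 0.0431), Liver minus MLN was 0.41 (limma adjusted p = 0.0539) and MLN minus Spleen was -0.55 (limma adjusted p = 0.140).

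**Figure D2:**
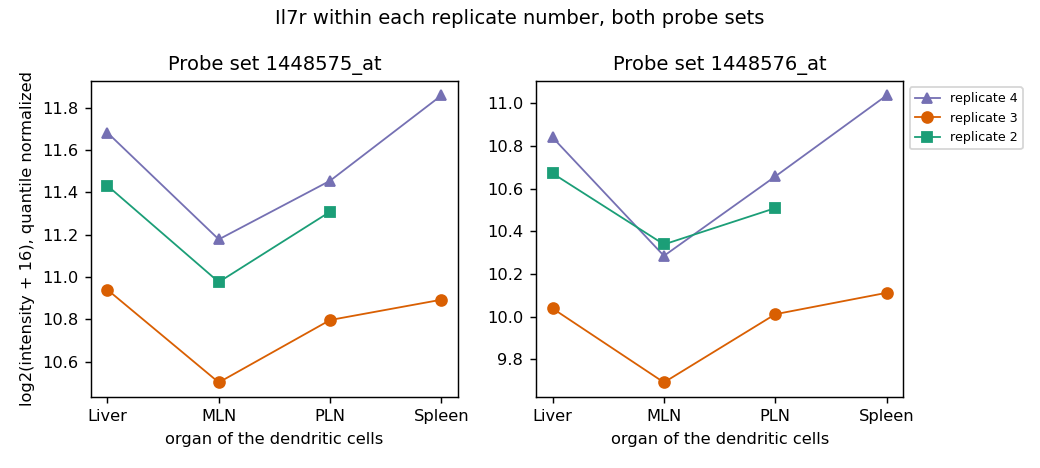
Levels of both Il7r probe sets, log2(intensity + 16), by organ of the dendritic cells, with 1 line per replicate number. MLN is the lowest point of each of the 3 lines in both panels, and the line of number 3 lies below the other lines throughout.

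Of 10 tested T cell markers, Cd2 and Cd5 passed in comparisons that also called Il7r. Cd2, an adhesion receptor of T cells, was 1 of 10 T cell markers that passed for MLN against the others, at -0.52 (SE 0.08, limma adjusted p = 0.00456, blocked fit). For Liver minus MLN, Cd2 (0.55, limma adjusted p = 0.00669) and Cd5 (0.57, limma adjusted p = 0.0303) passed, both higher in Liver cultures. Of all genes 1.36% were called for MLN against the others and 4.13% for Liver minus MLN. Cd8a and Thy1 went the other way, at 0.19 and 0.02 for MLN against the others and -0.12 and -0.06 for Liver minus MLN. The remaining markers were higher in Liver than in MLN cultures by 0.08 to 0.32 and did not pass. The 10 markers summed to 33349 to 41214 in Liver, 30993 to 40304 in MLN, 31662 to 36662 in PLN and 34431 to 39829 in Spleen cultures, ranges that overlap. Of the 13 tested markers of mature dendritic cells 0 passed for MLN against the others in the blocked fit, and their sums were 9504 to 15679 in MLN, against 6820 to 16033 in Liver, 8937 to 15282 in PLN and 6054 to 17869 in Spleen cultures. Among markers of other cells, Cd14 of monocytes (-1.14, limma adjusted p = 0.0324), Klrk1 of NK cells (-0.80, limma adjusted p = 0.00306) and Pdpn of stroma (-1.05, limma adjusted p = 0.00958) were lower in MLN cultures than in the others. They were 1 of 5, 1 of 3 and 1 of 2 tested markers of their lists, and activated T cells or dendritic cells can express Klrk1 and Cd14 too. In the same lists Cd68 (0.15), Gzma (0.22) and Pecam1 (0.24) were higher in MLN cultures than in the others. Lyz2, Csf1r, Ctss and Eomes were lower, and none of these others passed. Cd14 and Pdpn were dim, with median intensities of 122.7 and 127.5, near the lower limit of 104.7 for testing. For Liver minus MLN, Cd14 (1.37), Klrk1 (1.18) and Pdpn (1.29) were higher in Liver cultures. So were Lyz2 of macrophages (1.004, limma adjusted p = 0.0156) and Il12b of mature dendritic cells (0.63, limma adjusted p = 0.0377). Batf3 of dendritic cells (-0.69, limma adjusted p = 0.0496) and Gzma of NK and cytotoxic T cells (-0.29, limma adjusted p = 0.0255) were lower in Liver cultures. The part of cell composition in the Il7r difference was not tested.

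Ccr7, which guides T cells along the chemokines of lymph nodes, was not called in any organ comparison. It averaged 10.83 ± 0.19 in Liver, 10.92 ± 0.32 in MLN and 11.04 ± 0.36 in PLN cultures (SD, n = 3), and 10.77 ± 0.35 in Spleen cultures (SD, n = 2). No neighbours in that order, PLN, MLN, Liver and Spleen, differed past the threshold, and the arrays of the organs overlapped. Liver minus Spleen was 0.06 without the block and -0.09 with it, so the order of those organs turned with the fit, and neither was called. The blocked F-test gave limma adjusted p = 0.542. The lowest blocked p of a pair was for Liver minus PLN, at -0.21 (SE 0.09, limma adjusted p = 0.282; 1.49% of genes called, 0.403% higher and 1.09% lower), with -0.27 in number 4, 0.02 in number 3 and -0.36 in number 2.

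Klf2, the factor of T cell quiescence and egress, had organ means closer together than its spread. They were 9.72 ± 0.77 in Liver, 9.93 ± 0.83 in MLN and 9.72 ± 0.58 in PLN cultures (SD, n = 3), and 9.80 ± 0.85 in Spleen cultures (SD, n = 2). The blocked F-test gave limma adjusted p = 0.626, and the blocked Liver minus MLN difference was -0.21 (SE 0.12, limma adjusted p = 0.426). In number 3 the 4 cultures differed little, at 8.99 in Liver, 9.07 in MLN, 9.07 in PLN and 9.20 in Spleen. In number 4 they spread from 10.17 in PLN to 10.71 in MLN.

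Lef1, the Wnt pathway factor, averaged 9.62 ± 0.33 in Liver, 9.49 ± 0.21 in MLN and 9.47 ± 0.15 in PLN cultures (SD, n = 3), and 9.47 ± 0.49 in Spleen cultures (SD, n = 2). The blocked F-test gave limma adjusted p = 0.795. Liver minus Spleen, the pair with the greatest blocked difference, was 0.16 (SE 0.14, limma adjusted p = 0.788; 0% of genes called). For Ccr7, Klf2 and Lef1 a p that misses the threshold does not show that the organs were alike.

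The replicate number, not the organ, went with most of the variation of the 4 genes. All 4 passed limma's F-test for the number in the fit with organ and number, in which 48.1% of all genes passed. Of the variance, it took 93.8% in Klf2, 81.8% in Ccr7, 70.7% in Lef1 and 70.6% in Il7r, against 51.9% for the median tested gene. The organ accounted for 27.5% in Il7r, 8.64% in Ccr7, 7.34% in Lef1 and 2.30% in Klf2, against 18.3% for the median gene. Klf2 stood above 98.4% of the tested genes in its share for the number. The labels do not say what the number stands for, and experiment, culture and array handling cannot be told apart.

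Klf2 had levels of 10.52, 10.71, 10.17 and 10.40 in the Liver, MLN, PLN and Spleen cultures numbered 4. Those numbered 3 had 8.99, 9.07, 9.07 and 9.20, and those numbered 2 had 9.65, 10.02 and 9.94 in Liver, MLN and PLN. The 3 numbers did not overlap, with 4 highest and 3 lowest. Of all genes tested, 19.2% had every array numbered 4 above every array numbered 3, and 15.8% above every array numbered 2. In 13.2% every array numbered 3 lay below every array numbered 2. Number 4 exceeded number 3 by 1.37 (SE 0.10, limma adjusted p = 2.45e-06), a fold of 2.58, in 4 of 4 organs, where 43.3% of all genes were called and 22.3% were called higher. It exceeded number 2 by 0.57 (SE 0.12, limma adjusted p = 0.00395; 27.2% of genes called), and number 3 minus number 2 was -0.80 (SE 0.12, limma adjusted p = 0.00115; 18.9% of genes called).

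Il7r was higher in number 4 than in number 3 by 0.76 (SE 0.06, limma adjusted p = 3.98e-06), a fold of 1.69. The difference was 0.74 in Liver, 0.68 in MLN, 0.66 in PLN and 0.97 in Spleen cultures. Number 3 minus number 2 was -0.53 (SE 0.07, limma adjusted p = 0.000674). Number 4 minus number 2 was 0.23 (SE 0.07, limma adjusted p = 0.0271), and this call was lost in 7 of 19 alternative settings. The second probe set gave 0.74 for 4 minus 3 (limma adjusted p = 9.30e-05) and 0.12 for 4 minus 2, which did not pass (limma adjusted p = 0.371).

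Lef1 had levels of 9.98, 9.73, 9.51 and 9.81 in the Liver, MLN, PLN and Spleen cultures numbered 4, against 9.33, 9.38, 9.30 and 9.13 in those numbered 3. Every array of number 4 lay above every array of number 3, as in 19.2% of the genes tested. The difference was 0.47 (SE 0.10, limma adjusted p = 0.00265), a fold of 1.39. Number 2, with 9.55 in Liver, 9.35 in MLN and 9.60 in PLN cultures, overlapped both. Lef1 did not pass for number 4 minus 2 (0.27, limma adjusted p = 0.0938) or for number 3 minus 2 (-0.20, limma adjusted p = 0.250).

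Ccr7 differed from the other genes in its order over the numbers, with number 2 on top. Its levels were 10.74, 10.91, 11.02 and 11.02 in the Liver, MLN, PLN and Spleen cultures numbered 4, and 10.71, 10.61, 10.69 and 10.53 in those numbered 3. Those numbered 2 had 11.05, 11.25 and 11.41 in Liver, MLN and PLN. The 3 numbers did not overlap, but Liver cultures numbered 4 and 3 differed by only 0.03, against 0.49 for Spleen. Of all genes tested, 15.3% had every array numbered 4 below every array numbered 2. Number 4 minus 3 was 0.29 (SE 0.08, limma adjusted p = 0.00954), number 4 minus 2 was -0.31 (SE 0.09, limma adjusted p = 0.0196) and number 3 minus 2 was -0.60 (SE 0.09, limma adjusted p = 0.00112). The call for 4 minus 3 was lost without Spleen replicate 3 (limma adjusted p = 0.0561) or Spleen replicate 4 (limma adjusted p = 0.0570), and that for 4 minus 2 in 6 of 19 alternative settings.

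In all 4 genes every array numbered 4 lay above every array numbered 3, a pattern of 19.2% of the genes tested. In Ccr7, Il7r and Klf2 every array numbered 3 also lay below every array numbered 2, as in 13.2% of genes. After the organ means were subtracted, Il7r and Klf2 correlated at r = 0.958 over the 11 arrays, Il7r and Lef1 at 0.887 and Klf2 and Lef1 at 0.880. Ccr7 correlated less, at 0.667 with Il7r, 0.554 with Klf2 and 0.404 with Lef1. These values rest on 3 replicate numbers. After the number means were subtracted instead, the first 3 pairs correlated at -0.44, 0.33 and 0.11, and those with Ccr7 at -0.07, -0.07 and -0.20.

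**Figure D3:**
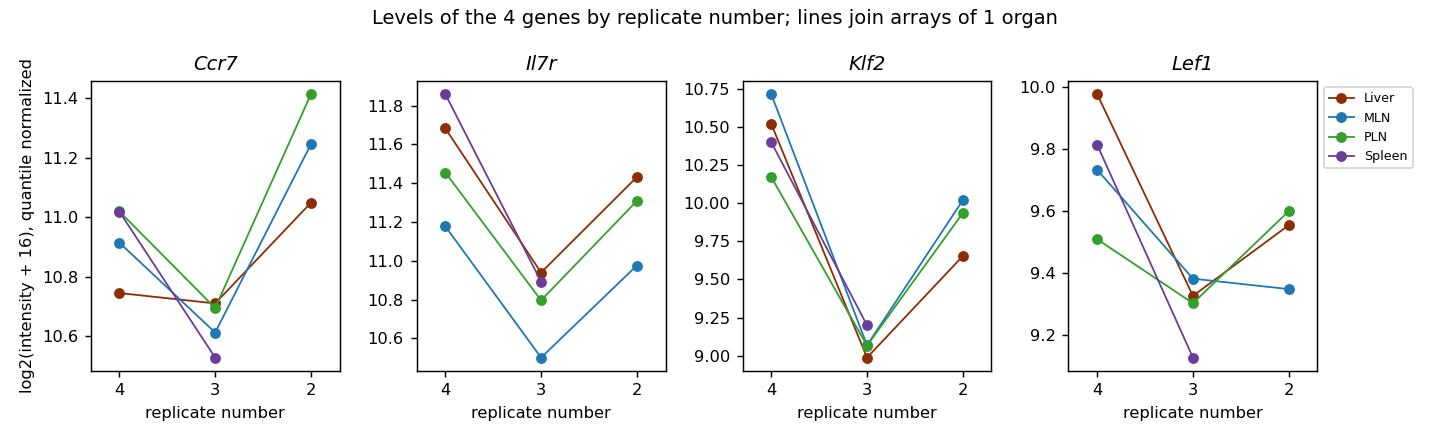
Levels of the 4 genes, log2(intensity + 16), by replicate number (horizontal axis), with lines joining the arrays of 1 organ. In every panel the points of number 4 lie above those of number 3, and in Ccr7 number 2 is highest.

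Markers of mature dendritic cells ran, by their median, opposite to the 4 genes for number 4 minus 3 and for number 3 minus 2. For number 4 minus 2 their median was -0.31, the same direction as Ccr7 (-0.31) and opposite to Il7r (0.23), Klf2 (0.57) and Lef1 (0.27). The summed intensity of these markers was 6054 to 9504 in number 4, 15282 to 17869 in number 3 and 8039 to 10133 in number 2. The sums of number 3 lay above all others, in each organ. For number 4 minus 3, 12 of 13 tested markers passed as lower and 1, Itgax (1.85), as higher, where 43.3% of all genes were called. The median difference was -1.07 against 0.0094 over all genes. Il12b, a subunit of interleukins 12 and 23, had -2.20 (limma adjusted p = 6.78e-07), and Ccl22, a chemokine of mature dendritic cells, had -1.83 (limma adjusted p = 3.07e-05). The T cell markers summed to 36662 to 41214 in number 4, 31890 to 34431 in number 3 and 30993 to 36141 in number 2. Of the 10, 4 passed as higher and 2 as lower for number 4 minus 3, where 43.3% of all genes were called. B cell markers summed to 999 to 1168 in number 4, 785 to 977 in number 3 and 1217 to 1303 in number 2, the same order as Ccr7. They were dim, the brightest, Cd79b, having a median intensity of 240.7, and 5 of the 9 measured were tested. For number 4 minus 3, 3 of the 5 passed as higher and 0 as lower (43.3% of genes called), while Ms4a1 was lower at -0.30 and did not pass. For number 3 minus 2, 1 passed as lower and 0 as higher (18.9% of genes called). For number 4 minus 2, 0 passed and the median was -0.03. The part of the dendritic cell or B cell share, or of T cell state, in the differences of the 4 genes was not tested. None of these markers was listed at 0.

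**Figure D4:**
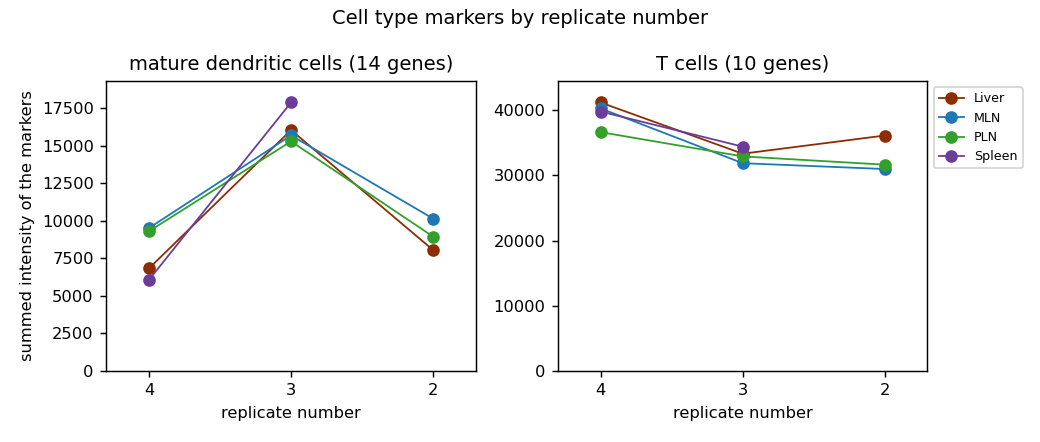
Summed intensity (linear scale from 0) of 14 markers of mature dendritic cells and of 10 T cell markers by replicate number, with 1 line per organ. The dendritic cell sums are highest in number 3, at 15282 to 17869, and the T cell sums are highest in number 4.

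Other genes of the same pathways were taken from 8 lists, which hold 99 further genes, of which 83 were tested. Without the number 0 of the 83 passed in limma for any organ comparison, with 3 in the F-test at an unadjusted p under 0.05. With the block 5 passed the F-test over organs, 6.02% of the 83 against the 1.98% of all genes given above. With the 4 members counted in, 6 passed, against 1 with the number as a random block. Leaving out 1 array gave 0 to 9, with 0 when either MLN replicate 2, MLN replicate 4 or Liver replicate 2 was left out, 3 without Liver replicate 4, PLN replicate 2 or PLN replicate 4, and 9 without Spleen replicate 3. Of the 5, 3 were lower with Liver dendritic cells than with the others, and these were Cxcr4, Il4ra and Cish.

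Cxcr4, a chemokine receptor that retains cells in marrow and lymphoid tissue, was lowest in Liver cultures of every number, as were 5.02% of all genes tested. Its levels were 10.23, 9.48 and 10.21 in Liver cultures numbered 4, 3 and 2. They were 10.81, 9.87 and 11.12 in MLN, 10.94, 9.88 and 11.47 in PLN, and 10.72 and 9.68 in Spleen cultures. Liver minus the mean of the others was -0.63 (SE 0.10, limma adjusted p = 0.0123, blocked; 2.14% of genes called, 0.753% higher and 1.39% lower). Its number 4 minus number 3 difference was 0.95 (SE 0.11, limma adjusted p = 3.53e-05).

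Il4ra, the interleukin 4 receptor chain, was highest in MLN cultures of every number, as were 3.97% of all genes tested. Its levels were 9.26, 9.43 and 9.05 in Liver cultures numbered 4, 3 and 2, against 10.01, 10.30 and 10.02 in MLN, 9.70, 9.84 and 9.86 in PLN, and 9.35 and 9.98 in Spleen cultures. Liver minus MLN was -0.86 (SE 0.11, limma adjusted p = 0.00127, blocked), and no Liver array reached an MLN array, as in 4.2% of all genes tested. MLN minus the mean of the others was 0.55 (SE 0.09, limma adjusted p = 0.0128). Cish, a feedback inhibitor of cytokine signalling through Stat5, had -0.75 for Liver minus the others (limma adjusted p = 0.0294). Bcl2, a survival factor induced by interleukin 7, had -0.90 for Liver minus MLN (limma adjusted p = 0.0255), with 9.47, 9.81 and 9.07 in Liver cultures numbered 4, 3 and 2, against 10.37, 10.15 and 10.53 in MLN cultures.

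Cd28, the costimulatory receptor of T cells, went the way of Il7r, higher in Liver than in MLN cultures by 0.46 (SE 0.09, limma adjusted p = 0.0148, blocked). Its levels were 11.48, 10.72 and 11.14 in Liver cultures numbered 4, 3 and 2, against 11.09, 10.29 and 10.59 in MLN cultures. Myc, a transcription factor of cell growth that rises on activation, had 0.42 for MLN minus the others (SE 0.08, limma adjusted p = 0.0314). Il2ra, the high-affinity interleukin 2 receptor chain, had -0.34 for Liver minus PLN (limma adjusted p = 0.0406). Txnip, a brake on glucose uptake, was higher in Liver than in the others by 0.58 (limma adjusted p = 0.0463), and Pdcd4, an inhibitor of translation, passed only the F-test over organs (limma adjusted p = 0.0312). Klf7 and Klf3, the genes of smallest p in the Klf family list and in that of naive and memory factors, did not pass (F-test, limma adjusted p = 0.119 and 0.168).

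By number, 56 of the 83 passed the F-test. For number 4 minus 3, 36 were higher and 13 lower, 59.0% called against 43.3% of all genes, with a median of 0.17 against 0.0094. Of all genes 22.3% were called higher and 21% lower, the shares to set beside each list count below. Those counts include any of the 4 members on the list. The lists were chosen with earlier results of these data known, and genes are named in this account of the numbers after their values were seen. With the members counted in, the list of lymph node homing and egress had 7 higher and 1 lower of 8 tested (median 0.42). Beside Ccr7, Klf2 and Cxcr4, the higher ones were S1pr1, the egress receptor, at 0.83 (SE 0.09, limma adjusted p = 3.12e-05), Selplg, a selectin ligand, at 0.54, and the integrin chains Itgal at 0.24 and Itgb2 at 0.26. Cxcr5, which guides cells to B cell follicles, was lower at -0.66 (limma adjusted p = 0.00186).

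The quiescence and anti-proliferative list had 9 higher, the member Klf2 among them, and 0 lower of 16 (median 0.31). Txnip led at 1.81, with Cdkn1b, a cyclin-dependent kinase inhibitor, at 1.11, Tsc22d3, a glucocorticoid-induced factor, at 1.05, and Btg2, an anti-proliferative factor, at 0.93. For Txnip the levels were 11.73, 11.55, 11.17 and 11.43 in the Liver, MLN, PLN and Spleen cultures numbered 4, against 9.90, 9.71, 9.61 and 9.39 in those numbered 3. The Klf family had 4 higher and 0 lower of 8 (median 0.28), where 43.3% of all genes were called. The 4 were the member Klf2, Klf13 at 1.04, Klf10 at 0.55 and Klf7 at 0.37. Mki67, a marker of dividing cells, differed by 0.02 (limma adjusted p = 0.784).

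Among factors of naive and memory T cells 7 of 14 were higher and 2 lower (median 0.21). Foxo1 was higher by 0.58 (SE 0.08, limma adjusted p = 0.000175), and Id3, an inhibitor of E proteins, was lower at -1.42 (SE 0.16, limma adjusted p = 2.96e-05), as was Satb1, a chromatin organizer, at -0.45. The naive T cell surface list had 7 higher and 1 lower of 11 (median 0.51), with Ltb, a lymphotoxin chain, at 1.01 and Cd28 at 0.76. In the list of interleukin 7 and common gamma chain signalling 6 were higher and 6 lower of 15 (median -0.06). Jak3, the kinase of the common gamma chain, and Jak1 were higher, at 0.80 and 0.54. The inhibitors Socs1 (-1.12) and Cish (-1.07), the receptor chains Il2ra (-0.58) and Il15ra (-0.60), and Stat5a (-0.37) were lower.

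The list of Tcf and Lef partners and Wnt targets had 3 higher and 2 lower of 15 (median 0.03), with Tcf4 at 0.56 and Myc at -0.39. The effector list had 4 higher and 3 lower of 12 (median 0.01), where 43.3% of all genes were called. Tbx21 and Prdm1, factors of effector T cells, were higher at 0.58 and 0.62, and Irf4, an activation factor, was lower at -0.28. Gzmb and Ifng, effector products, differed by -0.03 and 0.02 and did not pass (limma adjusted p = 0.636 and 0.931). Number 4 minus 2 called 20 of the 83 higher and 6 lower, and number 3 minus 2 called 10 higher and 23 lower. These are 31.3% and 39.8% of the 83, against 27.2% and 18.9% of all genes, so the share for 4 minus 2 is near that of all genes.

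**Figure D5:**
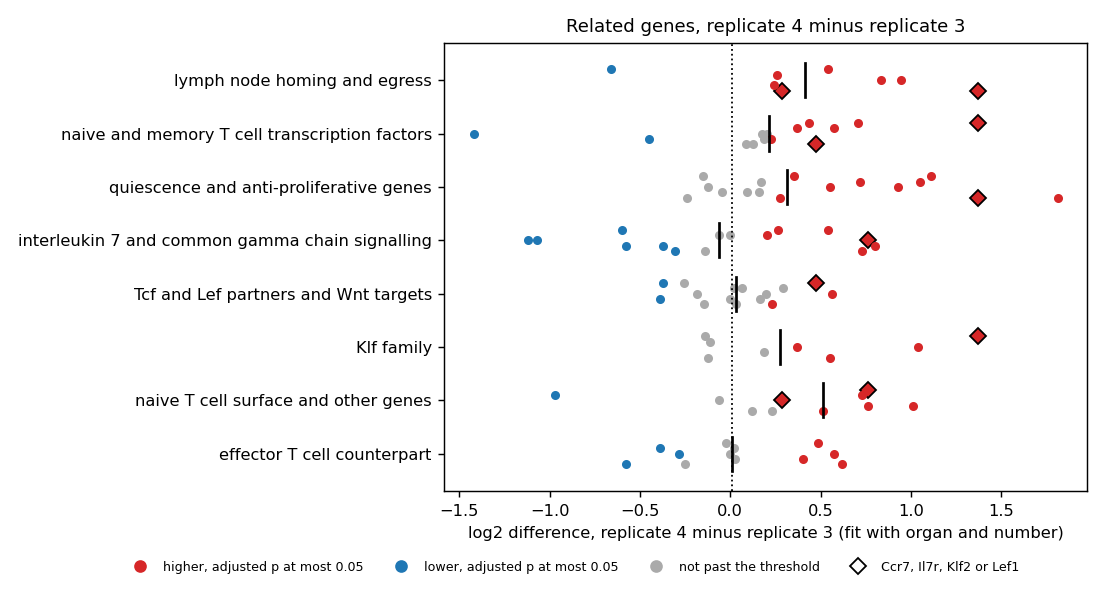
Log2 difference of number 4 minus number 3 for each tested gene of the 8 lists; red and blue points passed as higher and lower, diamonds are Ccr7, Il7r, Klf2 and Lef1, black bars are list medians and the dotted line is the median of all genes. The bars of the homing and naive surface lists lie farthest right, at 0.42 and 0.51, and that of interleukin 7 signalling lies at -0.06.

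The genes whose levels most resembled each of the 4 over the 11 arrays were found by Pearson's r, which here reflects mainly the shared replicate numbers. Klf2 was most like Hcfc1r1 (r = 0.988), Macroh2a1, a histone variant (0.979), and Smpd1, acid sphingomyelinase (0.978). Il7r was most like Sun2, a nuclear envelope protein (0.967), Il17ra, an interleukin 17 receptor chain (0.962), and Ranbp10 (0.961). Lef1 was most like Ggh, gamma-glutamyl hydrolase (0.985), Srebf2, the regulator of cholesterol synthesis (0.968), and Cdk5rap1 (0.957). Ccr7 was most like Spidr (0.960), Rnf19a (0.956) and Polr1c (0.949).

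After each number's mean was subtracted other genes came first, save for Ggh with Lef1 (0.951), next to which stood Mat2b (0.938) and Pex2 (0.935). Il7r was then most like Chek1, a checkpoint kinase (0.969), Pdlim1 (0.949) and Suds3 (0.947). Ccr7 was most like Dhx36, an RNA helicase (0.980), Sertad2 (0.942) and Map2k1, a kinase of the Erk pathway (0.941), and Klf2 most like Akap10 (0.952), Ccdc47 (0.950) and Plcl2 (0.950).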

How the data were processed

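Deposited values are linear intensities, 1 for each probe set on each of 11 arrays. The authors scaled them, judging by the values: with 2% trimmed off both ends, all arrays had a mean of 500.2. The array software is not given in the sources used here. Of 22690 probe sets, 64 controls were left out, 20380 had 1 gene symbol, 691 several and 1555 none; 20351 symbols were matched to those of GRCm38.p6. Arrays were quantile normalized as log2(intensity + 16), which understates differences of dim genes. Each gene took its brightest probe set by mean, and the upper 60% of 12393 genes, above an intensity of 104.7, were tested (7436). Median intensities were 144.3 to 170.4 and actin 3′ to 5′ ratios 1.08 to 1.15, and the number of arrays limits the precision.

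limma 3.58.1 in R 4.3.3 (lmFit, eBayes with a variance trend, Benjamini-Hochberg adjustment) fitted the arrays by organ (7 residual degrees of freedom), or by organ with the replicate number as a block (5). The titles give the numbers. They pair the arrays: deviations from the organ means gave correlations over genes of 0.412 to 0.731 in the 15 same-number pairs, against -0.708 to 0.0841 in the 30 pairs differing in number and organ. The deviations cancel within each organ, so positive values within numbers by themselves force lower values between numbers, and both ranges are not independent. The blocked value stands beside a result whose call it changes. Number differences come from the fit with organ and number. P-values reflect only how much these arrays vary, and that variation may be technical.

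Related genes were named where they passed an organ comparison in either fit, otherwise the 2 of smallest p per list, and the likeness rule took the 3 genes of highest correlation. The members and lists were chosen with earlier results of these data known. Alternatives were scaling, pseudocount, filter, probe set, variance trend, block and leaving out each array. Tested on simulated MLN differences in 200 of 7436 genes, the fit without the block found 18% of those of size 0.5 and 82% of size 1 (log2), and the blocked fit 70% and 96%.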

Additional observations from a re-analysis of the deposited data

How the results depend on the processing

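All 4 genes passed the F-test for the replicate number in each of 19 alternative settings. Without the block, 0 of the 4 passed an organ comparison in any of 20 settings. With the replicate block 1 gene, Il7r, passed the F-test over organs and the organ-against-others comparison, and 2 calls were made over the organ pairs. The counts with the block were the same (1, 1 and 2) with intensities as deposited, log2(intensity + 1), log2(intensity + 64) and the upper 40% of genes. They were 1, 1 and 1 with no filter, and 0, 1 and 1 with every probe set tested or with no variance trend. They were 0 throughout with median centring or with the arrays numbered 3 and 4 alone, settings chosen after seeing the data like the others that join the block to a change. Leaving out 1 array with the replicate block gave 0 to 1 calls in the F-test, 0 to 1 for an organ against the others and 1 to 2 over pairs. Il7r lost the blocked F-test without Liver replicate 2 (adjusted p = 0.0519), MLN replicate 2 (0.0694) or MLN replicate 4 (0.0890). It lost MLN minus Spleen without MLN replicate 2 (0.0580), MLN replicate 4 (0.118) or Spleen replicate 4 (0.203). Over 21 settings with the block MLN minus the others ran from -0.48 to -0.35 for Il7r. The related genes together with the 4 passing the F-test over organs numbered 0 without the block, 6 with it, 1 with a random block, 6 with the block and intensities as deposited, log2(intensity + 1), log2(intensity + 64) or the upper 40%, 4 with median centring and 2 with no filter; leaving out 1 array with the replicate block gave 0 to 9, with 7 without Liver replicate 3 and 9 without Spleen replicate 3. By number 50 to 60 of them passed. Lef1 passed for number 4 minus 2 without PLN replicate 4 (0.40, adjusted p = 0.0210). Small uncalled differences of Ccr7 between organs changed sign with the block, such as Liver minus Spleen (0.06 without it and -0.09 with it). For the calls and signs that differ between settings the cause was not tested.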
